A study of Oryza sativa with 23 samples.

Results

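The iron acquisition genes of rice take iron up from the soil, make the chelator that carries it, or regulate these steps. The 10 genes followed here are OsIRT1 (LOC_Os03g46470), OsIRT2 (LOC_Os03g46454), OsNAS1 (LOC_Os03g19427), OsNAS2 (LOC_Os03g19420), OsNAS3 (LOC_Os07g48980), OsNAAT1 (LOC_Os02g20360), OsDMAS1 (LOC_Os03g13390), OsYSL15 (LOC_Os02g43410), TOM1 (LOC_Os11g04020) and OsIRO2 (LOC_Os01g72370). They were found by these locus identifiers among the 52901 probes of the array, which cover 52900 rice loci, and each had 1 probe. Roots of 4 genotypes were sampled with and without drought, and their RNA was put on 23 one-colour Agilent arrays, with 3 arrays for each genotype and treatment except well-watered OsNAM Event 2, which had 2 (replicates 1 and 3). IR64 is a rice cultivar, and OsNAM Event 2 is a line of IR64 that overexpresses the transcription factor gene OsNAM12.1 and stands for 1 transgenic event. Vandana is another cultivar, and 481-B is a near isogenic line of Vandana that carries the drought-yield locus qDTY12.1 of the cultivar Way Rarem. All plants grew in soil-filled cylinders and their roots were taken 25 days after sowing. For drought, soil was left to dry from 75% of field capacity in every genotype. Control soil stayed at field capacity in 481-B and Vandana but at 1.2 times that in both IR64 lines, so the background of a line and its watering level cannot be told apart. Whether an array held 1 plant or a pool is not given in the sources used here. The p-values therefore measure only how far arrays spread within groups, with that spread pooled over all groups.

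Rice takes up iron by both routes known in plants. Transporters of the IRT type bring in ferrous iron directly, while roots also release deoxymugineic acid, a chelator built from S-adenosylmethionine by way of nicotianamine, and then take up the ferric complex. Most of these genes are known to be induced in iron-deficient rice roots, and the transcription factor OsIRO2 is known to promote the chelator branch. No sequence is printed, because the probe and promoter sequences were not among the tables used here. OsNAS1 and OsNAS2 are neighbouring loci of chromosome 3 and closely related, so that signal shared between their probes was not tested.

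Signals are log2 values of the background-corrected intensity after quantile normalization, which gives every array the same distribution, so that a step of 1 is a doubling. Differences come from a single limma model over the 23 arrays, in which a call needs an adjusted p (Benjamini-Hochberg, over 52900 probes) below 0.05. Levels of different probes are not compared with each other. In whole roots, fewer cells of a type and less RNA per cell cannot be told apart.

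Between 31.6% and 64.2% of the spots of an array were well above background, with the lowest shares on Vandana well-watered replicate 3, IR64 well-watered replicate 3 and IR64 drought replicate 2. Arrays lay on 4 slides. Over 315 probes that separated the drought arrays of the 2 backgrounds, an index set to 0 for Vandana and 481-B and to 1 for IR64 and OsNAM Event 2 was 0.96 on the array labelled Vandana well-watered replicate 2, against 0.88 to 0.98 on the well-watered arrays of the IR64 lines and -0.0050 to 0.070 on the other well-watered arrays of 481-B and Vandana. That array goes against its label and is kept under it, with results for Vandana also given without it. The drought treatment itself was plain in the loci LOC_Os11g26790 and LOC_Os05g46480, described in the study's own tables as a dehydrin and a LEA protein and chosen there on these samples. They were higher by 5.87 and 5.86 on the log2 scale in the mean of the 4 genotypes, and no drought array overlapped a well-watered one.

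Under drought the genes of the chelator branch, other than OsNAS3, and their regulator OsIRO2 were lower. OsIRT1 and OsIRT2, the ferrous iron transporters among the 10 genes, were not called. However, the OsIRT1 probe was dim and the OsIRT2 probe stayed at background on all 23 arrays. These probes therefore do not describe ferrous iron transporters as a class. In the mean drought effect of the 4 genotypes, 7 of the 10 genes were called lower and 0 higher, where 12.3% of all probes were called lower and 14.2% higher. The median difference of the 10 genes was -2.24 on the log2 scale, against -0.06 for all probes. At the threshold that the methods name, more than 2-fold with a Bonferroni-adjusted p below 0.05, 3 of the 10 genes (OsNAS1, OsNAAT1 and OsIRO2) were lower, against 0.592% of all probes. OsNAS1 had the 13th lowest difference among the 52900 probes, and OsNAS2 the 55th.

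**Figure D1:**
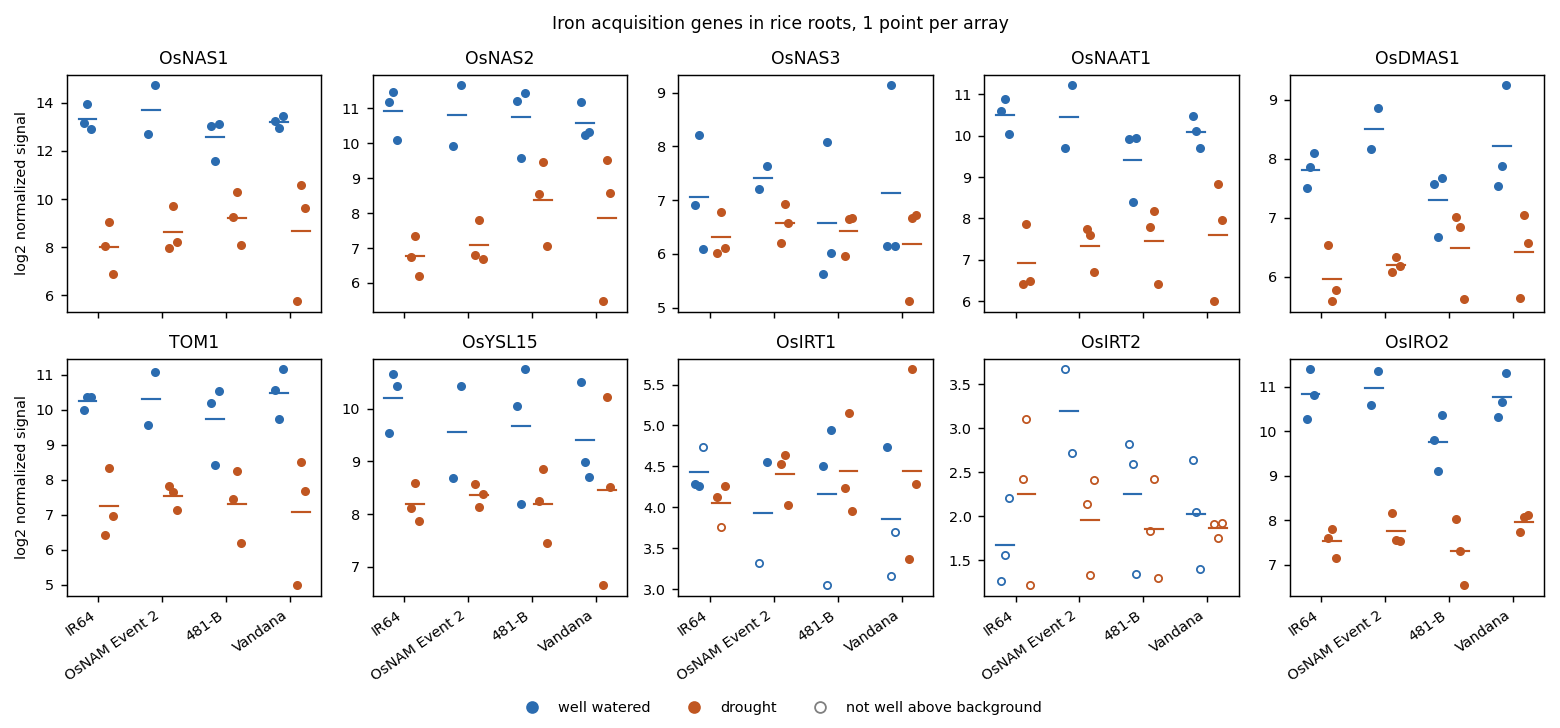
Log2 normalized signal (vertical axis) of each of the 10 genes on every array, by genotype (horizontal axis), with well-watered arrays in blue and drought arrays in orange. Bars are group means, and open points are arrays on which the probe was not well above background. For OsNAS1, OsNAS2 and OsIRO2 all 12 drought arrays lie below all 11 well-watered arrays, while for OsIRT1 and OsIRT2 the treatments overlap.

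OsNAS1 encodes nicotianamine synthase, the enzyme that joins S-adenosylmethionine into nicotianamine. In IR64 its log2 signal was 13.15, 13.94 and 12.89 on the well-watered arrays and 8.03, 9.05 and 6.90 on the drought arrays. In OsNAM Event 2 it was 12.71 and 14.72 when well watered and 7.96, 9.71 and 8.21 under drought. In both the transgenic line and its parent the treatments did not overlap. In 481-B the values were 13.05, 11.58 and 13.14 when well watered and 9.26, 10.29 and 8.09 under drought. In Vandana they were 13.24, 12.95 and 13.45 when well watered and 5.77, 10.59 and 9.65 under drought. The highest drought array, Vandana replicate 2, was still 0.99 below the lowest well-watered array, 481-B replicate 2. The mean difference over the 4 genotypes was -4.59 (95% confidence interval -5.64 to -3.53, adjusted p = 5.54e-06, limma), which is a 24.0-fold lower signal. By genotype it was -5.33 in IR64 (adjusted p = 0.0040), -5.09 in OsNAM Event 2 (adjusted p = 0.011) and -4.54 in Vandana (adjusted p = 0.026), and -3.38 in 481-B did not pass the test (adjusted p = 0.166, limma). That calls were made in only part of the genotypes does not show that the genotypes differ.

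OsNAS2, a neighbouring nicotianamine synthase gene, had the same pattern. Its 11 well-watered arrays lay between 9.58 and 11.66 with a median of 11.18, and its 12 drought arrays between 5.49 and 9.51 with a median of 7.21. The treatments did not overlap, although the gap between Vandana drought replicate 2 and 481-B well-watered replicate 2 was only 0.07. The mean difference was -3.24 (95% confidence interval -4.17 to -2.31, adjusted p = 5.19e-05, limma). It was called in IR64 at -4.15 (adjusted p = 0.0090) and in OsNAM Event 2 at -3.70 (adjusted p = 0.027), while -2.38 in 481-B (adjusted p = 0.356) and -2.72 in Vandana (adjusted p = 0.109, limma) were not.

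OsNAS3, on chromosome 7, stood apart from the other synthase genes. Its well-watered arrays ranged from 5.63 to 9.14 with a median of 6.90, and its drought arrays from 5.13 to 6.93 with a median of 6.61, so that the treatments overlapped widely. The highest value, 9.14, was on the array labelled Vandana well-watered replicate 2, next to 6.14 on each of the other well-watered Vandana arrays. The mean difference of -0.68 did not pass the test (95% confidence interval -1.51 to 0.14, adjusted p = 0.225, limma). With the replicate number as a block it did (-0.79, adjusted p = 0.039, limma), although the replicate numbers did not pair the arrays. Without Vandana well-watered replicate 2 the mean difference was -0.43 (adjusted p = 0.356) and that of Vandana moved from -0.96 to 0.035 (adjusted p = 0.992, limma). Whether the difference of OsNAS3 departed from that of OsNAS1 was not tested.

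OsNAAT1 and OsDMAS1 encode the nicotianamine aminotransferase and the reductase that complete deoxymugineic acid. For OsNAAT1 the well-watered arrays lay between 8.41 and 11.22 with a median of 10.03, and the drought arrays between 6.01 and 8.83 with a median of 7.67. A single drought array, Vandana replicate 2, reached above a single well-watered array, 481-B replicate 2. The mean difference was -2.78 (95% confidence interval -3.52 to -2.05, adjusted p = 2.29e-05, limma), and the genotype values of -3.58 in IR64 (adjusted p = 0.0049) and -3.11 in OsNAM Event 2 (adjusted p = 0.020, limma) were called. In 481-B the difference of -1.96 and in Vandana that of -2.49 were not called (adjusted p = 0.313 and 0.071, limma). OsDMAS1 had well-watered values from 6.67 to 9.25 with a median of 7.86, and drought values from 5.59 to 7.05 with a median of 6.25. Its mean difference was smaller, -1.69 (95% confidence interval -2.21 to -1.18, adjusted p = 9.05e-05, limma), and was called in IR64 at -1.85 (adjusted p = 0.032) and OsNAM Event 2 at -2.31 (adjusted p = 0.016). The difference was -1.79 in Vandana (adjusted p = 0.066) and -0.81 in 481-B, where the treatments overlapped (adjusted p = 0.834, limma), and neither was called.

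TOM1 encodes the transporter that releases deoxymugineic acid from the root. Its well-watered arrays lay between 8.44 and 11.16 with a median of 10.38, and its drought arrays between 5.00 and 8.52 with a median of 7.56. Only Vandana drought replicate 2 lay above the lowest well-watered array, and within each genotype the treatments did not overlap. The mean difference was -2.91 (95% confidence interval -3.77 to -2.04, adjusted p = 7.51e-05, limma). Calls were made in IR64 at -3.01 (adjusted p = 0.038) and in Vandana at -3.42 (adjusted p = 0.038, limma), and the values of -2.78 in OsNAM Event 2 and -2.42 in 481-B did not pass (adjusted p = 0.062 and 0.270, limma).

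OsYSL15 encodes the transporter that takes the ferric complex back into the root. Its well-watered arrays ranged from 8.20 to 10.75 with a median of 10.05 and its drought arrays from 6.65 to 10.22 with a median of 8.31. As many as 7 of the 12 drought arrays lay above the lowest well-watered array, 481-B replicate 2. The mean difference was -1.41 (95% confidence interval -2.26 to -0.56, adjusted p = 0.015, limma), while no single genotype passed the test, with values between -2.02 in IR64 and -0.94 in Vandana. Without OsNAM Event 2 well-watered replicate 3 the mean difference was -1.19 and no longer called (adjusted p = 0.051, limma).

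OsIRT1 and OsIRT2 encode transporters of ferrous iron at the root surface, and their probes were dim. The OsIRT1 probe was well above background on 17 of the 23 arrays, 11 of them under drought and 6 well watered, and the OsIRT2 probe on 0 of 23. For OsIRT1 the well-watered arrays lay between 3.05 and 4.95 with a median of 4.28 and the drought arrays between 3.37 and 5.68 with a median of 4.25. The mean difference of 0.24 was not called (95% confidence interval -0.39 to 0.86, adjusted p = 0.609, limma), and scaling by the 75th percentile of each array in place of quantiles turned it to -0.12. Because no array measured OsIRT2 above background, its fitted differences are not read as changes, although OsIRT2 stays among the 10 genes of each count.

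OsIRO2 encodes a transcription factor of the bHLH class that activates the chelator branch in iron-deficient rice. In IR64 its log2 signal was 10.28, 11.39 and 10.81 when well watered and 7.61, 7.81 and 7.15 under drought. In OsNAM Event 2 it was 10.59 and 11.37 when well watered and 8.16, 7.56 and 7.54 under drought. Again the treatments did not overlap in either line. In 481-B it was 9.80, 9.10 and 10.37 when well watered and 8.04, 7.31 and 6.55 under drought. In Vandana it was 10.33, 10.67 and 11.32 when well watered and 7.73, 8.08 and 8.11 under drought. Every drought array was below every well-watered array, by at least 0.94. The mean difference was -2.95 (95% confidence interval -3.39 to -2.50, adjusted p = 4.30e-08, limma), a 7.72-fold lower signal. OsIRO2 alone among the 10 genes was called in each genotype, at -3.31 in IR64 (adjusted p = 1.38e-04), -3.22 in OsNAM Event 2 (adjusted p = 5.14e-04), -2.46 in 481-B (adjusted p = 0.0067) and -2.80 in Vandana (adjusted p = 0.0015, limma).

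**Figure D2:**
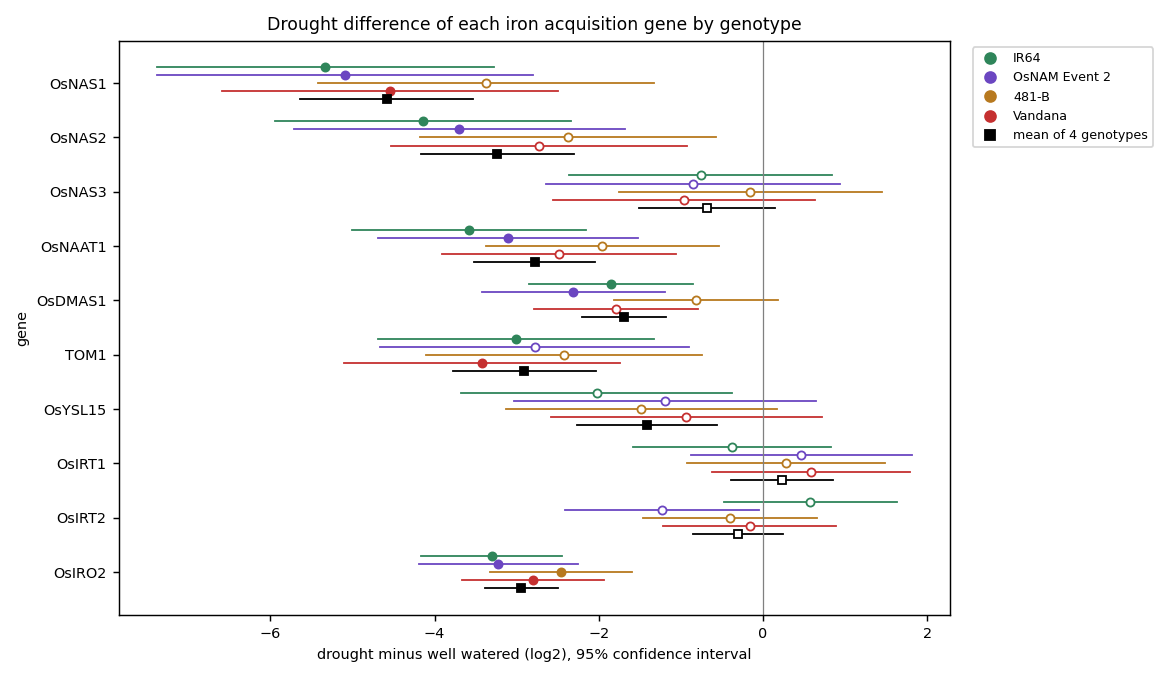
Drought minus well-watered difference (horizontal axis, log2) of each gene with its 95% confidence interval from the limma model, in each genotype (circles) and in the mean of the 4 genotypes (black squares). Filled symbols passed an adjusted p below 0.05. The 7 genes called in the mean effect lie left of 0 in all 4 genotypes, and OsIRO2 is filled in each, while OsIRT2 was at background on every array.

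Counted by genotype with limma, 6 genes were called lower in IR64 (1.83% of all probes), 5 in OsNAM Event 2 (2.97%), 1 in 481-B (0.208%) and 3 in Vandana (0.499%), and 0 were called higher in any, where 3.16%, 5.19%, 0.374% and 1.2% of all probes were. At an unadjusted p below 0.05 the counts of lower genes were 7 (7.85% of all probes), 7 including OsIRT2 (13.3%), 5 (3.81%) and 6 (8.14%). At the stricter threshold of the methods, OsIRO2 was called in IR64 (0.0548% of all probes were lower) and 0 genes in OsNAM Event 2 (0.0284%), 481-B (0.00378%) and Vandana (0.017%). All 7 genes called in the mean effect had negative differences in each of the 4 genotypes, with medians of -3.31, -3.11, -2.38 and -2.72 in the same order. The drought arrays of a genotype lay wholly below its well-watered arrays for 8 of the 10 genes in IR64 (8.45% of all probes), 9 in OsNAM Event 2 (26.2%, with 2 well-watered arrays), 5 in 481-B (8.28%) and 6 in Vandana (9.41%). The 8 in IR64 include the dim OsIRT1, whose highest drought value of 4.263 was barely below its lowest well-watered value of 4.265. The 9 in OsNAM Event 2 include OsIRT2, at background, and OsNAS3. In every genotype at once the treatments lay apart in this way for 5 genes, OsNAS1, OsNAS2, OsNAAT1, TOM1 and OsIRO2, and for 1.18% of all probes. Over all genotypes together, 3 of the 10 genes had every drought array below every well-watered array, against 0.592% of all probes.

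Single arrays moved the counts within a genotype. The count in IR64 was 3 without its drought replicate 3 and 4 without its well-watered replicate 2 or 3, where OsDMAS1 and TOM1 did not pass in either case. In OsNAM Event 2 the count was 1 without well-watered replicate 3 and 3 without well-watered replicate 1, drought replicate 1 or drought replicate 3. The count there was 6 without Vandana drought replicate 1. Vandana had 1 call, OsIRO2, without drought replicate 1, without well-watered replicate 3 and without well-watered replicate 2, the array that goes against its label. In that last case OsNAS1 was at -4.68 (adjusted p = 0.055), TOM1 at -3.80 (adjusted p = 0.052) and OsIRO2 at -2.85 (adjusted p = 0.0072, limma). For 481-B the count was 0 without well-watered replicate 3, where OsIRO2 was at -2.15 (adjusted p = 0.052, limma), and 2 without Vandana drought replicate 1. Without the 3 arrays of the lowest share of spots above background, 4 genes were called in IR64, 6 in OsNAM Event 2, 1 in 481-B and 1 in Vandana, and 7 in the mean effect.

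Treatments could also be compared within slides. In 9 instances a drought and a well-watered array labelled with the same genotype lay on the same slide. Signal was lower under drought in 9 of 9 such pairs for OsNAS1, OsNAS2, OsNAAT1, TOM1 and OsIRO2, as it was for 5.26% of all probes. The median pair difference was -3.84 for OsNAS1, -3.00 for OsIRO2, -2.74 for OsNAS2, -2.64 for TOM1 and -2.13 for OsNAAT1. OsDMAS1 was lower in 8 pairs, OsYSL15 in 7, OsNAS3 in 5 and OsIRT1 in 4. The smallest pair differences of OsNAS2 (-0.11), TOM1 (-0.17) and OsNAAT1 (-0.23) came from 481-B replicate 2. The Vandana pair on slide 2 used well-watered replicate 2, the array that goes against its label. The differences in that pair were -3.30 for OsNAS1, -2.56 for OsIRO2, -2.13 for OsNAAT1, -2.05 for TOM1 and -1.64 for OsNAS2.

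**Figure D3:**
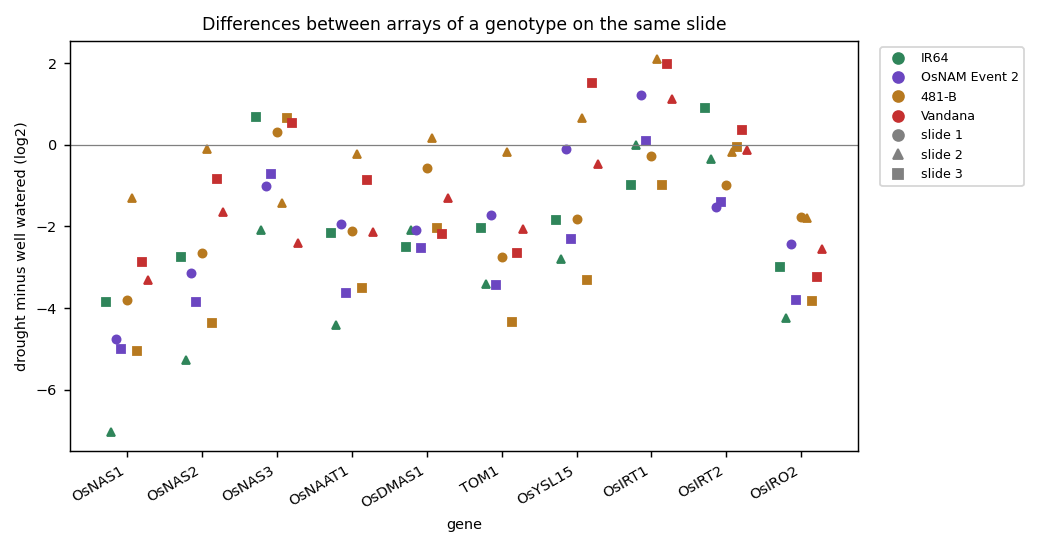
Difference in log2 signal (vertical axis) between a drought array and a well-watered array of the same genotype on the same slide, for each gene (horizontal axis), with colour for the genotype and shape for the slide. All 9 pairs lie below 0 for OsNAS1, OsNAS2, OsNAAT1, TOM1 and OsIRO2, and on both sides of 0 for OsIRT1 and OsNAS3. The Vandana pair on slide 2 holds well-watered replicate 2, the array that goes against its label.

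The question of whether the backgrounds responded differently was put to the model as the mean response of IR64 and OsNAM Event 2 minus that of 481-B and Vandana. By limma 0 of the 10 genes were called (0.0246% of all probes were), and 0 had an unadjusted p below 0.05 (5.55%). The estimates were -1.37 for OsNAS2 (95% confidence interval -3.23 to 0.49), -1.25 for OsNAS1 (-3.36 to 0.86), -1.12 for OsNAAT1 (-2.59 to 0.34), -0.78 for OsDMAS1 (-1.81 to 0.25) and -0.63 for OsIRO2 (-1.52 to 0.26). A negative value is a larger drought decrease in the IR64 lines, and each interval includes 0. For TOM1 the estimate was 0.03 (-1.70 to 1.77), and it changed sign under 5 of the alternatives tried, single arrays left out aside. Without Vandana well-watered replicate 2, OsNAS2 was at -1.28 and OsNAS1 at -1.18. The levels of the backgrounds were compared within each treatment as well. Under drought, the difference of OsNAS2 between the IR64 lines and the other lines was -1.18 (95% confidence interval -2.45 to 0.10, adjusted p = 0.483, limma), with 0 of the 10 genes called (3.5% of all probes) and 0 at an unadjusted p below 0.05 (12.2%). In well-watered roots the 10 estimates lay between 0.17 and 0.72, each higher in the IR64 lines, with 0 called (1.54% of all probes) and again 0 at an unadjusted p below 0.05 (9.71%). They include OsIRT1 (0.17), whose probe was dim, and OsIRT2 (0.29), at background and not read as a difference. The Vandana side holds well-watered replicate 2, the array that goes against its label, and these estimates are not given without it. With each array left out in turn, 0 genes were called.

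Between OsNAM Event 2 and IR64 the response differences of the 7 genes called in the mean effect lay between -0.46 and 0.83 and limma called 0 of the 10 genes (0% of all probes). Levels of the 7 genes differed by 0.18 to 0.63 under drought, with 0 of the 10 called (0%), and by -0.65 to 0.69 when well watered, with 0 called (0.0113%). At an unadjusted p below 0.05 the counts were 1 (3.35% of all probes), 0 (1.52%) and 1 (6.01%), the gene being OsIRT2 in both cases, which was not above background. The 95% confidence interval of the OsNAS1 response difference reached 3.07 to either side of 0.24, the widest among the 10 genes. That of OsIRO2 was the narrowest and reached 1.29 to either side of 0.08. An effect of the transgene inside these intervals could have been missed. Between 481-B and Vandana, response differences of the 7 genes lay between -0.55 and 1.17, with 0 of the 10 called by limma (0.00189% of all probes) and 0 at an unadjusted p below 0.05 (1.72%). Under drought their levels differed by -0.67 to 0.54, with 0 called (0.00567%) and 0 at an unadjusted p below 0.05 (2.03%). When well watered, 0 genes were called (0.00189%), and OsIRO2 was at -1.01 in 481-B against Vandana (95% confidence interval -1.88 to -0.15, unadjusted p = 0.024, adjusted p = 0.854, limma). OsDMAS1 was at -0.91 (-1.91 to 0.09) and TOM1 at -0.77 in the same comparison. Without Vandana well-watered replicate 2 these differences were -1.07, -1.08 and -1.14. When each array was left out in turn, the difference ranged over -1.32 to -0.69 for OsIRO2 and over -1.25 to -0.40 for OsDMAS1. OsIRO2 was the 1 gene with an unadjusted p below 0.05 (4.48% of all probes), and it did not pass the adjustment.

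In each of the 7 genes that fell, all well-watered group means were above all drought group means, while the order within a treatment differed from gene to gene. For OsIRO2 the means ran from 10.98 ± 0.55 (SD, n = 2) in well-watered OsNAM Event 2, through 10.83 ± 0.56 (n = 3) in IR64, 10.77 ± 0.51 in Vandana and 9.76 ± 0.63 in 481-B, to 7.97 ± 0.21 in Vandana under drought, 7.76 ± 0.35 in OsNAM Event 2, 7.52 ± 0.34 in IR64 and 7.30 ± 0.75 in 481-B. Only the step from well-watered 481-B to droughted Vandana separated neighbours whose arrays did not overlap. OsNAS1 and OsNAS2 likewise had 1 such step, between the lowest well-watered and the highest drought group, which was 481-B under drought in both. Well-watered 481-B had the lowest well-watered mean for OsNAS1 (12.59 ± 0.87), OsNAAT1 (9.42 ± 0.88), OsDMAS1 (7.31 ± 0.56), TOM1 (9.73 ± 1.13) and OsIRO2, while its arrays overlapped those of the group above it for each.

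The genes that fell also varied together from array to array. Over the 23 arrays the 21 pairs among these 7 genes had Pearson correlations between 0.67 and 0.97 with a median of 0.90. These arrays share the treatment contrast, so the same was computed on deviations from group means. The median was then 0.77 over the 12 drought arrays and 0.75 over the 11 well-watered arrays, with 21 of 21 pairs positive in each. OsNAS1 went most closely with OsNAS2 and OsNAAT1 (0.97 each over 23 arrays). The mean of the members, here and below, is over standardized log2 signals of the members that were well above background on every array of some group. It leaves out OsIRT2, and OsIRT1 entered it through drought groups only. With this mean taken over the other members, OsIRT1 had a correlation of 0.13, OsIRT2 of 0.11 and OsNAS3 of 0.30. These correlations are descriptions over arrays that share slides and a normalization.

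**Figure D4:**
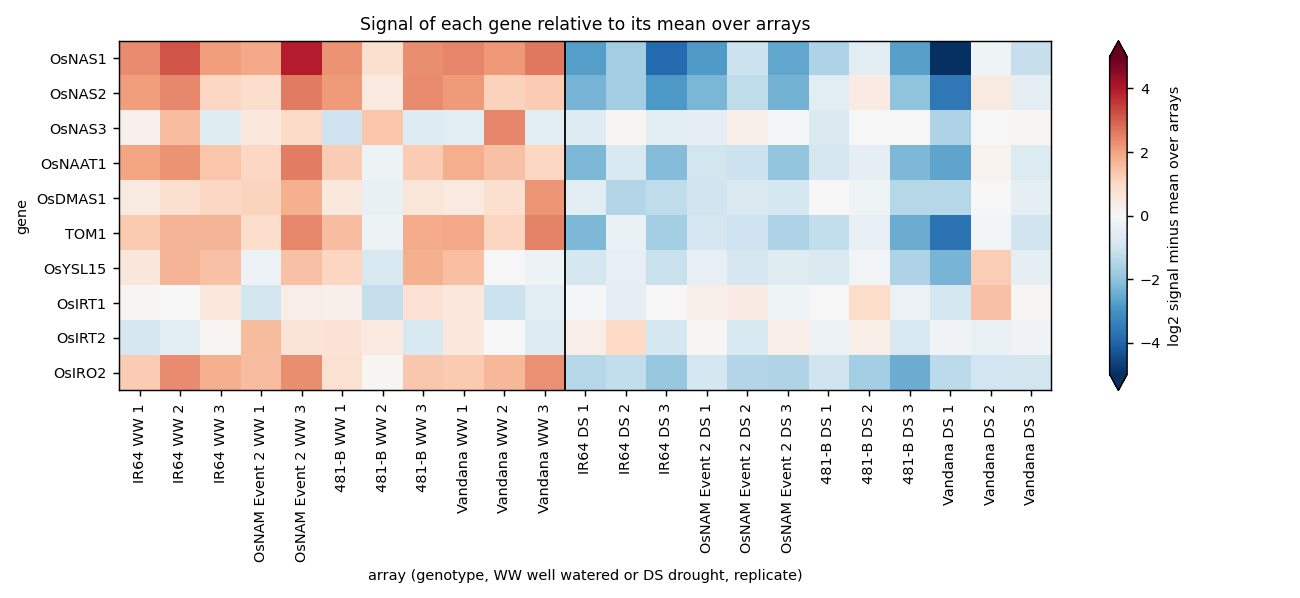
Log2 signal of each gene (rows) on each array (columns) minus the mean of that gene over all arrays, with well-watered (WW) arrays left of the line and drought (DS) arrays right of it. OsNAS1, OsNAS2, OsNAAT1, OsDMAS1, TOM1 and OsIRO2 are mostly red when well watered and blue under drought, and 481-B WW 2 and Vandana DS 2 are pale in these rows.

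A few arrays were extreme for many of these genes at once. Among the well-watered arrays, 481-B replicate 2 was lowest for 7 of 7 genes. Among the drought arrays, Vandana replicate 2 was highest for 6 of 7 and Vandana replicate 1 lowest for 5 of 7. On these 3 arrays the dehydrin locus LOC_Os11g26790 was at 6.64, 12.16 and 12.43, inside the range of its treatment on the other arrays. The root marker LOC_Os02g44310 was at 12.24, 12.79 and 9.30, its lowest well-watered, highest drought and lowest drought values. The ferritin locus LOC_Os11g01530 was at 7.19 on 481-B replicate 2, its highest well-watered value. On the Vandana arrays it was at 7.80 and 8.76, inside its drought range. The summed signal of the loci listed as green-tissue markers was 20298.5, 555 and 267 on the 3 arrays. On the other well-watered 481-B arrays it was 4018 and 523, and over all well-watered arrays it ranged from 375 to 21557.

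Markers of the tissue moved in part with these genes. Of 4 loci listed as root markers, 3 were well above background on all arrays and 0 on none, and in the mean drought effect 1 was called lower and 2 higher. The locus that fell, LOC_Os02g44310, singled out after its values were seen, was lower by 2.18 on the log2 scale (adjusted p = 9.71e-04, limma) and had a correlation of 0.93 with the mean of the members over the 23 arrays. Its signal was 12.79 on Vandana drought replicate 2 and 9.30 on Vandana drought replicate 1, its highest and lowest drought values. The summed signal of the 4 root markers was between 5357 and 19107 on the well-watered arrays and between 1033 and 9017 on the drought arrays, but LOC_Os02g44310 made up 55.0% to 95.4% of it on each array. The other 3 markers summed to between 530 and 1311 when well watered and between 403 and 1941 under drought, and the 2 markers called higher differed by 0.75 and 1.27 on the log2 scale (adjusted p = 0.045 and 0.015, limma). Of 6 loci listed as green-tissue markers, 0 were called for drought, and their summed signal ranged from 375 to 21557 on well-watered and from 144 to 63994 on drought arrays. The part of root composition in the result was not tested.

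Other genes of iron homeostasis did not share a single direction. The deposited files do not pair these loci with names, so they are given by list, with names for those that a table of the study describes. Of 12 loci listed as iron regulators, 2 were lower and 4 higher in the mean drought effect, where 12.3% of all probes were lower and 14.2% higher (median -0.22 on the log2 scale, against -0.06 for all probes). The same shares are the background of the lists that follow. Of 18 listed as transporters of iron or its chelators, 5 were lower and 2 higher (median -0.31). Among them LOC_Os07g15460, also singled out after its values were seen, was lower by 2.31 (adjusted p = 4.26e-06, limma), without overlap between the drought arrays (3.71 to 5.56) and the well-watered arrays (5.69 to 8.19). Of 11 loci listed for the methionine cycle, which supplies the precursor of nicotianamine, 4 were lower and 2 higher (median -0.18). Of 8 relatives of OsIRT1 in the ZIP family of metal transporters, 2 were lower and 4 higher (median 0.31). Those the study describes as putative metal cation transporters, LOC_Os05g10940 and LOC_Os06g37010, were higher by 2.07 (adjusted p = 9.70e-04) and 1.91 (adjusted p = 0.016, limma), with overlap between treatments. They come from the same list chosen on these samples. The probe of LOC_Os05g10940 was well above background on only 14 of the 23 arrays, with a well-watered median of 3.23. The lowest difference among the 8 relatives was -1.49 (adjusted p = 6.48e-05, limma).

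Of 3 loci listed for iron storage, 2 were called higher and 0 lower (median 2.26), both of them ferritins, the proteins that store iron. The loci LOC_Os11g01530 and LOC_Os12g01530 are described as ferritin-1 in a table of the study that was chosen on these samples, so that their direction is not independent evidence. LOC_Os11g01530 had signals between 4.87 and 7.19 on the well-watered arrays and between 7.25 and 9.76 on the drought arrays, with no overlap, and was higher by 2.31 in the mean effect (adjusted p = 8.70e-06, limma). LOC_Os12g01530 was higher by 2.26 (adjusted p = 2.58e-04, limma), again without overlap. The probe of the third locus of the list was well above background on 0 of the 23 arrays. Its difference of -0.07, which was not called, is therefore not read as a measured lack of change. By genotype LOC_Os11g01530 passed the test in IR64 (2.93, adjusted p = 0.0030) and OsNAM Event 2 (2.62, adjusted p = 0.012, limma), and 1.70 in 481-B and 1.98 in Vandana did not. Over the 23 arrays its correlation with the mean of the members was -0.88.

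**Figure D5:**
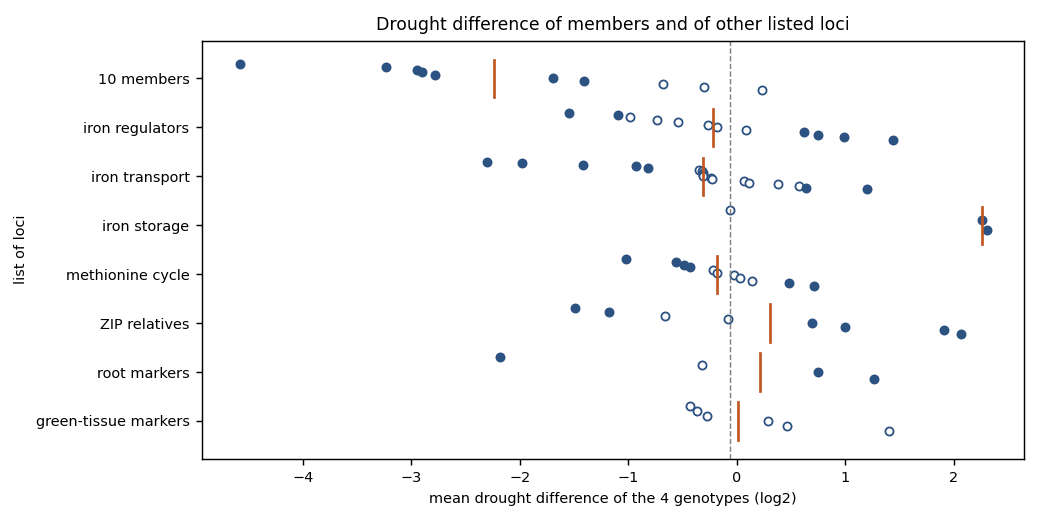
Mean drought difference of the 4 genotypes (horizontal axis, log2) of each locus in the 10 members and in 7 other lists (vertical axis). Filled points passed an adjusted p below 0.05, orange bars are list medians, and the dashed line is the median of all probes at -0.06. The members lie to the left with a median of -2.24, and 2 of the 3 iron storage loci lie to the right at 2.26 and 2.31.

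Outside these lists, the 10 non-member probes most like the mean of the members over the 23 arrays had correlations between 0.93 and 0.95. LOC_Os10g20830 and LOC_Os07g07860 led them at 0.95 each. The tables used here do not annotate these loci.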

How the data were processed

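Root RNA was measured on 23 one-colour arrays, grouped by the genotype, treatment and replicate in the labels. The authors deposited the Agilent Feature Extraction output of each array (version 11.0 per the labels, 11.5.1.1 per the file headers), whose processed signal is a background-subtracted intensity not normalized between arrays, and a table of log2 values that the authors had quantile normalized and centred on each probe's median. Values rebuilt here in that way had a correlation of 0.99998 with the deposited log2 values. Control spots and spots marked as outliers (0 to 17 per array) were left out, log2 values of repeated spots were averaged and then quantile normalized, and 1 probe without a value in 1 group was dropped. Quantile normalization forces equal distributions, so a shift shared by most transcripts would not be seen. The number of arrays limits the precision.

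A single limma 3.58.1 model (lmFit and eBayes, R 4.3.3) with a mean for each of the 8 groups gave 14 contrasts, all two-sided and adjusted by Benjamini-Hochberg over 52900 probes. Tables used pandas 2.3.3 and numpy 2.4.6 under python 3.11.15. The calls were tested on simulated arrays with independent normal noise at each probe, unlike the genes here, which varied together. Simulated differences of -2 on the log2 scale were called in 40% to 53% of cases within a genotype and 91% in the mean of 4 genotypes. For differences of -4 these shares were 89% to 94% and 100%. The methods name a 2-fold and Bonferroni threshold but no test. All 10 members were named, as were list loci that a table describes, 2 other loci that fell in a list, and the 2 probes most like the members. The lists were written from general knowledge of rice loci, and members and lists were chosen with earlier results of these data known. Alternatives were a 75th percentile shift, normexp background correction with an offset of 50 (on the median spot signal), a filter on dim probes, the deposited log2 values, a block for the slide or for the replicate number, only the arrays compared, and arrays left out.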

Additional observations from a re-analysis of the deposited data

How the results depend on the processing

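The mean drought effect called 7 genes lower under 7 of its alternatives and 8 with the replicate block, which added OsNAS3 (-0.79, adjusted p = 0.039, limma). The 75th percentile shift also gave 8, but the gene added was OsIRT2 (-1.04, adjusted p = 0.039, limma), a probe at background on all 23 arrays, so that this is no measured fall. With 1 array left out it called 6 to 7, and the OsYSL15 difference ranged over -1.63 to -1.18. The shift moved the median of all probes to -0.62, and relative to that the 7 called genes were at -0.63 (OsYSL15) to -3.89 (OsNAS1), OsIRT1 at 0.50 and OsNAS3 at -0.04. OsIRT1 itself turned to -0.12. At more than 2-fold and Bonferroni, 3 genes were called in the mean effect, 1 in IR64 and 0 in OsNAM Event 2, 481-B and Vandana. Fits of only the arrays compared called 3 genes in IR64, 2 in OsNAM Event 2 and 0 in 481-B and Vandana, from fewer arrays to estimate the spread. In Vandana, 5 genes were called after the filter on dim probes, 1 with slide as a block, 1 without the 3 arrays of lowest share above background, and 0 when Vandana well-watered replicate 2 was also left out, an alternative chosen after seeing the data. The cause was not tested. With 1 array left out, counts ranged over 3 to 6 in IR64, 1 to 6 in OsNAM Event 2, 0 to 2 in 481-B and 1 to 4 in Vandana.

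Replicate numbers did not pair the samples. Deviations of same-numbered arrays from their group means had correlations of -0.40 to 0.41, positive in 4 of 11 pairs, and the replicate block called 6, 5, 1 and 3 genes in IR64, OsNAM Event 2, 481-B and Vandana, 8 in the mean effect.

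A genotype's difference does not move when an array of another genotype is left out, and only its p-value does. Many of the 896 genotype values of the 7 genes under alternatives were thus fixed in advance. None of the 896 changed sign as fitted, while 54 lost and 10 gained the call. Relative to the shifted median of all probes in OsNAM Event 2 (-1.12), however, OsYSL15 was at 0.14 there. Values of genes that were not called did change sign. OsIRT1 was at -0.17 in OsNAM Event 2 after the shift, and in Vandana without those 4 arrays OsIRT1 was at -0.30 and OsNAS3 at 0.034. With 1 array left out, OsIRT1 ranged over -0.15 to 1.08 in OsNAM Event 2, -0.28 to 0.67 in 481-B and -0.038 to 1.12 in Vandana, and OsNAS3 over -0.63 to 0.60 in 481-B and -1.46 to 0.035 in Vandana. Response differences between the backgrounds changed sign for TOM1 (-0.071 with normexp, -0.44 with slide as a block, -0.029 with the replicate block, -0.37 without the 3 arrays and -0.16 without the 4), OsIRT1 (0.20 without the 4) and OsYSL15 (0.11 without the 4). With 1 array left out they ranged over -0.49 to 0.41 for TOM1, -0.75 to 0.04 for OsNAS3 and -0.85 to 0.041 for OsYSL15. Each locus had 1 probe, so averaging probes of a locus could not differ. The fitted values of OsIRT2 are at background and no measured change: -0.36 in IR64 after the shift, 0.029 with normexp and 0.10 with slide as a block in Vandana, and 0.030 without the 3 arrays and 0.18 without the 4 for the response, with ranges of -0.48 to 0.14 in Vandana and -0.28 to 0.21 for the response when 1 array was left out.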
